A study of Homo sapiens with 8 samples.

Results

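SUM159 cells grown with JQ1 and paclitaxel together were compared with SUM159 cells grown with paclitaxel alone. SUM159 is an established triple-negative breast cancer line, here carrying a DNA barcode library for clone tracing. The members were every cell of the JQ1+paclitaxel library, 643 of 5738 cells in 8 single-cell libraries, and they were set against the 752 cells of the paclitaxel library. The JQ1+paclitaxel cells received JQ1 at 100 nM and paclitaxel at 0.6 nM, and the paclitaxel cells received paclitaxel at 0.6 nM, for up to 18 passages. The same experiment held a library of 459 cells grown in the solvent DMSO without drug and a library of 697 cells grown in JQ1 at 100 nM (JQ1-A). The other libraries were a pre-treatment sample, a second JQ1 library (JQ1-B), palbociclib at 160 nM and JQ1 with palbociclib. On each side of the comparison 3 cultures were pooled before the cells were captured, so each side was 1 library and had no replicate check of its own. The study states that 1 JQ1+palbociclib culture died out during passaging. The cultures were passaged under drug, so outgrowth of different clones cannot be told apart here from a change of RNA within cells. It was not tested. Below, effect and response name a difference between libraries.

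JQ1 is a small molecule that occupies the bromodomains of the BET proteins, BRD2 and BRD3 among them. These proteins bind acetylated histones and bring the kinase P-TEFb to genes, where it releases paused RNA polymerase II. Paclitaxel binds the tubulin polymer, holds microtubules in place and disturbs the mitotic spindle. In triple-negative lines BET inhibition is known for its effects on transcription of cell cycle and inflammatory genes.

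The JQ1+paclitaxel library held 14341832 UMIs (unique molecular identifiers, each standing for 1 captured RNA molecule) and the paclitaxel library 18176477. The median cell had 20793 UMIs and 3536 genes with JQ1+paclitaxel, and 22503 UMIs and 4147.5 genes with paclitaxel. Ribosomal protein genes took 33.4% of all UMIs against 29.1%, and the 50 most abundant genes took 40.3% against 29.8%. The median share of mitochondrial UMIs per cell was 4.69% against 3.72%. No cell barcode occurred in both libraries, and 13 occurred in more than 1 library over all 28 pairs of libraries. Both libraries carried the RNAs of the line, VIM, KRT18, CD44, EGFR and AXL, and lacked hormone receptor RNA, with 1 and 0 UMIs for ESR1 and 1 and 2 for PGR in the paclitaxel and JQ1+paclitaxel libraries. ERBB2 was low in both, at 5.15 and 11.8 CPM, the UMIs of a gene scaled to a common library total. Of 25 marker genes of leukocytes, endothelium, fibroblasts, adipocytes and erythroid cells, 13 were in the table. Their summed levels in the paclitaxel and JQ1+paclitaxel libraries were 9.34 and 13.9 CPM for leukocytes, almost all from CD68, 24.3 and 15.3 for fibroblasts, 0 and 0.0773 for endothelium, 0.353 and 4.25 for adipocytes, and 0.252 and 0.773 for erythroid cells.

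Levels are CPM of summed UMIs, scaled by trimmed mean normalisation (TMM), and fold changes are log2 values of JQ1+paclitaxel over paclitaxel with their standard error. The test was the quasi-likelihood test of edgeR over all 9288 genes with at least 5 CPM in at least 2 libraries. It took the spread from 2 pairs of libraries given the same drugs (2 residual degrees of freedom) and assumed that the single libraries vary like them. JQ1-A and JQ1-B came from separate experiments, and pre-treatment and DMSO cells were both without drug but differed in solvent and time in culture, so their spread is not one of replicate cultures. A gene was called when its p, adjusted by the Benjamini-Hochberg method over all genes tested, was under 0.05. The p-values measure only the spread between these libraries, which may be technical.

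Adding JQ1 to paclitaxel was followed by called differences in 3343 genes, 36.0% of those tested. Of these, 1590 were higher (17.1% of genes tested) and 1753 lower (18.9%). Counts of called genes in the lists below are to be read beside these shares. The unadjusted p was under 0.05 for 4371 genes. By the fit, 1427 called genes were at least 2-fold apart, 761 higher and 666 lower. Scaled by library totals in place of TMM, every log2 fold change was 0.27 lower, so that 929 genes were called higher and 3054 lower, and 23.3% in place of 47.6% of the called genes were higher. Gene lists with a median between 0 and 0.27 therefore change sign between the scalings. On plain CPM with 1 added, 1497 genes (16.1% of those tested) were at least 2-fold apart between the JQ1+paclitaxel and paclitaxel libraries. The same count was 62 genes (0.668%) between pre-treatment and DMSO and 24 genes (0.258%) between JQ1-A and JQ1-B.

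The genes with the largest changes were taken from the called genes with at least 20 CPM in either library of the comparison, and genes below that level could change as much. Of these, FABP4 rose furthest. It encodes the fatty acid carrier of adipocytes and macrophages, and stood at 1.96 CPM in DMSO, 1.72 in paclitaxel, 10.0 in JQ1-A and 256 in JQ1+paclitaxel. The fold change was 7.22 ± 0.30 (adjusted p = 5.71e-06), a 149-fold difference with a 95% counting interval of 107 to 216. ADIRF, a small gene of adipocyte differentiation, read 0.769, 1.01, 13.8 and 34.1 CPM in the same order and rose by 5.07 ± 0.41. The nuclear receptor NR4A1 read 16.3, 2.32, 42.8 and 49.0 CPM and rose by 4.40 ± 0.39. For NR4A1 the paclitaxel library was the low one, while the JQ1+paclitaxel and JQ1-A libraries were close together and above DMSO.

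The other genes among the 12 largest rises at this level were STAC2, NR2F1, EGR1, CADM3, APOE, HCFC1R1, VSTM2L, FOS and SEPP1. NR2F1, an orphan nuclear receptor of development and tumor cell dormancy, read 3.07 CPM in DMSO, 2.22 in paclitaxel, 34.6 in JQ1-A and 23.7 in JQ1+paclitaxel (3.41 ± 0.33). VSTM2L read 24.1, 18.3, 172 and 146 CPM (2.99 ± 0.18), and both libraries with JQ1 were far above both without it. HCFC1R1, which encodes a regulator of the transcription cofactor HCFC1, read 71.7, 38.6, 243 and 308 CPM (3.0 ± 0.19). APOE, the lipid transport protein, read 7.60, 4.70, 9.28 and 38.6 CPM (3.04 ± 0.48), so that the JQ1+paclitaxel library stood above the other 3. STAC2 rose by 4.07 ± 0.63, CADM3 by 3.06 ± 0.59 and SEPP1, which carries selenium in plasma, by 2.97 ± 0.48. Among these 12 genes the call of FOS was lost with the 4 libraries of the experiment alone.

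Among called genes with at least 20 CPM the cytokine gene IL32 fell furthest, at 120 CPM in DMSO, 109 in paclitaxel, 3.20 in JQ1-A and 2.17 in JQ1+paclitaxel. It lies at chr16:3115298-3132193 of GRCh37, and the fold change was -5.65 ± 0.44 (adjusted p = 0.000305), 50.3-fold lower with a counting interval of 34.7 to 75.9. A UMI of IL32 was found in 62.3% of paclitaxel cells (95% exact binomial interval 58.7 to 65.8%, 456 of 732 cells) and in 1.98% of JQ1+paclitaxel cells (1.03 to 3.43%, 12 of 606) after thinning to 10000 UMIs per cell, and in 82.5% and 3.47% with all UMIs. CDC42EP1, an effector of the GTPase CDC42, read 16.5, 29.99, 2.0 and 2.09 CPM (-3.84 ± 0.37). SCG5, a chaperone of secretory granules, read 58.3, 164, 17.3 and 15.9 CPM (-3.37 ± 0.37). SPHK1, which makes sphingosine 1-phosphate, read 10.5, 29.8, 5.54 and 3.17 CPM (-3.23 ± 0.31). In IL32 both libraries without JQ1 were high, while SCG5 and SPHK1 were highest in paclitaxel.

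The remaining genes among the 12 largest falls at this level were ATAD3B (-3.22 ± 0.40), the slow muscle troponin TNNT1 (-2.80 ± 0.23), the ERBB ligand NRG1 (-2.73 ± 0.49), the lipase inhibitor ANGPTL4 (-2.72 ± 0.49), the collagenase MMP1 (-2.57 ± 0.67), S100A2 (-2.53 ± 0.46), AC003092.1 (-2.48 ± 0.66) and the keratin KRT75 (-2.37 ± 0.50). ANGPTL4 read 11 CPM in DMSO, 28.5 in paclitaxel, 4.27 in JQ1-A and 4.33 in JQ1+paclitaxel. ATAD3B, a mitochondrial ATPase, read 17.3, 65.0, 9.15 and 6.96 CPM, the paclitaxel library again being the highest. ATAD3B has close paralogs, so its reads may be split between copies. The calls of MMP1, AC003092.1 and KRT75 were lost in DESeq2.

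**Figure D1:**
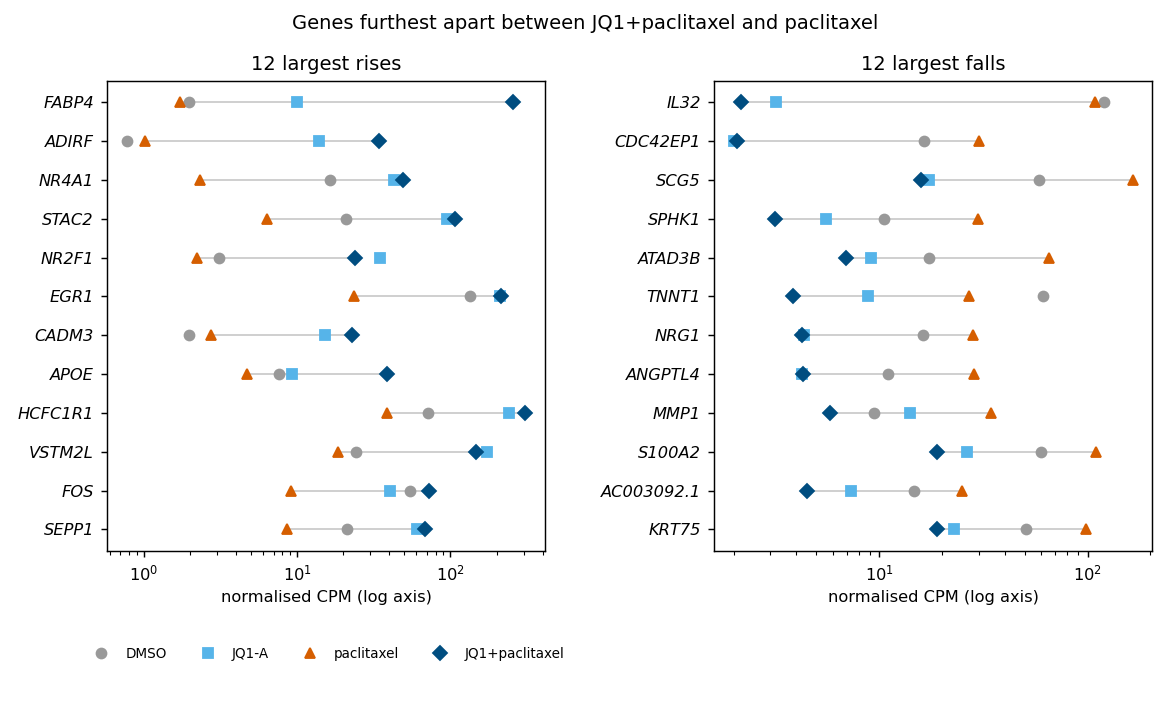
Normalised CPM (log axis) of the 12 genes with the largest called rise and the 12 with the largest called fall among genes with at least 20 CPM in either library compared, in DMSO (grey circles), JQ1-A (light blue squares), paclitaxel (orange triangles) and JQ1+paclitaxel (dark blue diamonds), 1 library each; grey lines join the libraries compared. FABP4 at 256 CPM lies far to the right of the JQ1-A library at 10.0, whereas IL32 lies near 2 to 3 CPM in both libraries with JQ1.

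Most immediate early genes, which growth factor and stress signals switch on without new protein synthesis, rose. Of 16 members tested, 14 were called higher and 0 lower, with a median log2 fold change of 2.35 beside -0.01 over all genes tested. Scaled by library totals, 13 were called higher and 1, KLF4, lower. EGR1, a zinc finger transcription factor, read 134 CPM in DMSO, 23.4 in paclitaxel, 211 in JQ1-A and 214 in JQ1+paclitaxel (3.19 ± 0.33, adjusted p = 0.000604). FOS, a subunit of the AP-1 transcription factor, read 54.7, 9.09, 40.4 and 72.1 CPM (2.99 ± 0.49). Its partner JUNB read 135, 31.3, 149 and 155 CPM (2.31 ± 0.28), and JUND read 24.8, 9.69, 50.9 and 49.5 CPM (2.35 ± 0.18). For EGR1, FOS and JUNB the JQ1+paclitaxel library stood within 2-fold of DMSO and of JQ1-A.

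ZFP36, which speeds the decay of cytokine mRNAs, rose by 2.46 ± 0.33 and IER3 by 1.32 ± 0.21. FOSB rose by 2.64 ± 0.57, KLF2 by 2.35 ± 0.45, KLF6 by 1.01 ± 0.18, IER2 by 1.65 ± 0.35 and KLF10 by 0.81 ± 0.27. EGR2 (13 UMIs in the paclitaxel library) and EGR3 (6 UMIs) were called higher, but at 6.03 and 6.73 CPM in JQ1+paclitaxel they were sparse. The 2 members without a call were JUN (0.73 ± 0.26, adjusted p = 0.0531) and KLF4 (-0.51 ± 0.22, adjusted p = 0.0939). The calls of EGR2, IER2 and KLF10 were lost in DESeq2. The paclitaxel library was the lowest of the 8 libraries for 13 of the 16 members (81.3%, beside 22.7% of all genes tested). Since that library is 1 side of the comparison, the count describes the same values. In 73.4% of JQ1+paclitaxel cells (445 of 606) and 20.6% of paclitaxel cells (151 of 732) a UMI of EGR1 was found after thinning, against 90.4% and 32.8% with all UMIs. NR4A1 was found in 28.4% (172 of 606) and 1.91% (14 of 732) of thinned cells, and in 44.1% and 4.92% with all UMIs. No cells that should lack these RNAs were in the libraries, so the share of cells with a UMI that free RNA alone gives was not measured, and single UMIs can be background.

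**Figure D2:**
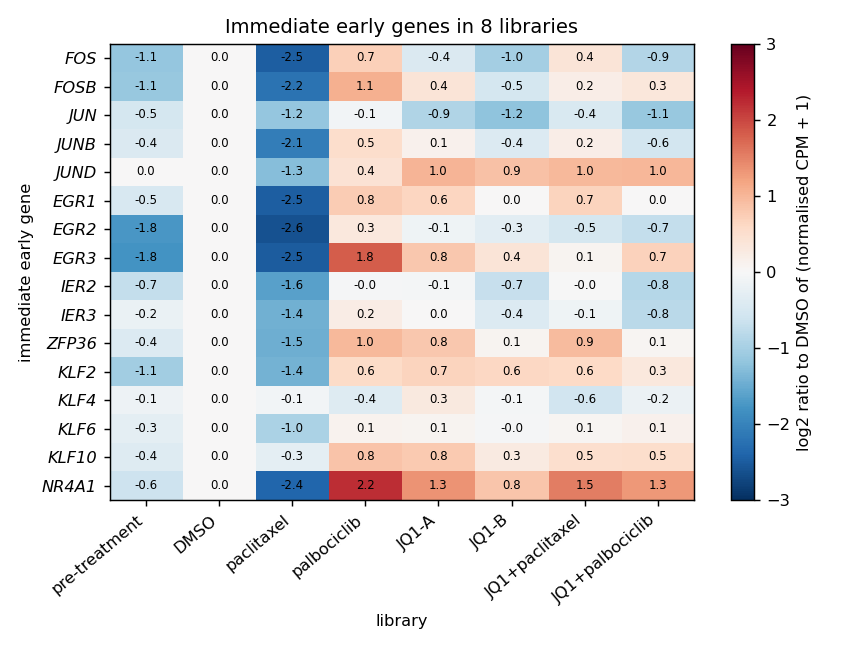
Heat map of the 16 immediate early genes in the 8 libraries, as the log2 ratio to DMSO of normalised CPM with 1 added (colour scale from -3, blue, to 3, red; numbers in the cells). The paclitaxel column is the lowest for 13 of the 16 genes, and the JQ1+paclitaxel column lies near the DMSO and JQ1-A columns.

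The promoters of 4 of these genes are printed because 14 of the 16 members moved together in the comparison. The sequences are the RefSeq promoters of GRCh38.p14, 250 bases before to 50 after the start on the plus strand. Capitals mark CArG boxes, the site of serum response factor, as exact matches to CCWWWWWWGG with W for A or T. They also mark the letters TGACG or CGTCA (the core of a cyclic AMP response element, searched on both strands). EGR1 lies at chr5:138465229-138465528, FOS at chr14:75278578-75278877, JUNB at chr19:12791236-12791535 and NR4A1 at chr12:52022582-52022881.
EGR1: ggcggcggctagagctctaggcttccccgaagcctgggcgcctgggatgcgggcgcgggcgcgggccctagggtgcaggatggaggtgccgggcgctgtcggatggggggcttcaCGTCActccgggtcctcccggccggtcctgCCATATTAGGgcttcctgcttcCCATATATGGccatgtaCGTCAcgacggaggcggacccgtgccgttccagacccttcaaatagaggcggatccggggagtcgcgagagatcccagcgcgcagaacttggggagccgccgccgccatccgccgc
FOS: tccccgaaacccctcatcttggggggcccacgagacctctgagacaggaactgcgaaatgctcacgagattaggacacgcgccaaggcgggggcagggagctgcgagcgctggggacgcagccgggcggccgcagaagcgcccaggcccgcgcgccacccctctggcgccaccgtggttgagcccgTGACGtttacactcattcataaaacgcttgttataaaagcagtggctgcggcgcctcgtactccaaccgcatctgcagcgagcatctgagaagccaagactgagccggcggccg
JUNB: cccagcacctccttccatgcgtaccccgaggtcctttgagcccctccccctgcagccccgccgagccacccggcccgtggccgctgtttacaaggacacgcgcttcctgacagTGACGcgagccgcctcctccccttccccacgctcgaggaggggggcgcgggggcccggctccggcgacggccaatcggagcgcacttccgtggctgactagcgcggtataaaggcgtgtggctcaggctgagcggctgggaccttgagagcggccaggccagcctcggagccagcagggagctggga
NR4A1: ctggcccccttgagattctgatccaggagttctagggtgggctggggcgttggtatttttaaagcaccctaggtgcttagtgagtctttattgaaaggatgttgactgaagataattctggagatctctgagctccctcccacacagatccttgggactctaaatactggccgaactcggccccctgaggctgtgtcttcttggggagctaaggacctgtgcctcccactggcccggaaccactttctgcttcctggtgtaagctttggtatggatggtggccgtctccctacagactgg
Of the 16 members, 13 matched a promoter in the table. A CArG box was in 1 of the 13 (7.69%), that of EGR1, which holds 2, and in 1.29% of all 27305 promoters of the same length. TGACG was in 8 of the 13 (61.5%), among them EGR1, FOS and JUNB, and in 25% of all promoters. The full element, TGACG followed at once by TCA, which holds these letters on both strands, was in 1 of the 13 (JUND, 7.69%) and in 1.98% of all promoters. TATAAA was in 3 (FOS, FOSB and JUNB, 23.1%) and in 12% of all promoters. NR4A1, which rose furthest of the 4 genes shown, had no match to the CArG box or TGACG in this window. Each gene was searched at a single start only. Sites outside these windows, or at another start of the same gene, would be missed.

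Many genes of DNA replication and mitosis fell. Of 38 S-phase genes tested, 20 were called lower and 0 higher (median -0.67), and of 54 G2/M genes 25 were called lower and 1 higher (median -0.52). In DESeq2, 11 and 13 of these were called lower, and with library total scaling 35 and 34. Among the replication genes, 20 of 40 were called lower and 0 higher. FEN1, the flap endonuclease, read 64.5 CPM in DMSO, 72.3 in paclitaxel, 34.0 in JQ1-A and 32.5 in JQ1+paclitaxel (-1.15 ± 0.17), and RFC3, a subunit of the clamp loader, read 36.2, 54.9, 23.8 and 25.2 CPM (-1.12 ± 0.18). PCNA fell by 0.64 ± 0.16 on the log2 scale and MCM7 by 0.83 ± 0.16. TOP2A (-0.08 ± 0.18), RRM2 (-0.45 ± 0.18) and TYMS (-0.40 ± 0.15) did not pass the test.

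Of 21 genes of the spindle checkpoint and the anaphase-promoting complex, 11 were called lower and 1, ANAPC11, higher, the latter not with library total scaling. UBE2C, the ubiquitin carrier of that complex, read 159 CPM in DMSO, 269 in paclitaxel, 114 in JQ1-A and 124 in JQ1+paclitaxel (-1.12 ± 0.15). UBE2S read 709, 1262, 632 and 628 CPM (-1.01 ± 0.16). The checkpoint gene MAD2L1 fell by 1.06 ± 0.16 and BUB3 by 0.86 ± 0.15. Among 18 mitotic kinesins and kinases, 7 were called lower and 0 higher, with the Aurora kinase AURKA at 63.7, 102, 43.0 and 38.0 CPM (-1.43 ± 0.17) and the Polo kinase PLK1 at 71.1, 104, 46.1 and 42.8 CPM (-1.28 ± 0.16). KIF11 (-0.10 ± 0.19), BUB1 (-0.07 ± 0.21) and TTK (-0.15 ± 0.30) did not pass. The paclitaxel library was the highest of the 8 libraries for 31 of the 38 S-phase genes (81.6%) and 15 of the 21 checkpoint genes (71.4%), beside 26.2% of all genes tested. As that library is 1 side of the comparison, these counts describe the same values.

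Of 17 cyclins, cyclin-dependent kinases and RB family genes, 9 were called lower and 2 higher, and with library total scaling 12 and 1. Cyclin E1 (CCNE1), which drives entry into S phase, read 5.89 CPM in DMSO, 14.7 in paclitaxel, 4.34 in JQ1-A and 4.79 in JQ1+paclitaxel (-1.61 ± 0.30). CCNA2 fell by 1.33 ± 0.19, CCNB1 by 1.19 ± 0.19 and the G1 kinase CDK4 by 0.81 ± 0.19 on the log2 scale. CCND1 read 164, 320, 274 and 227 CPM (-0.50 ± 0.16, adjusted p = 0.036), and CCND3 fell by 0.55 ± 0.16. CCNE2 (-0.64 ± 0.32) did not pass. RB1, the retinoblastoma protein, read 7.60, 7.72, 13.8 and 15.2 CPM (0.98 ± 0.21), and its relative RBL2 rose by 1.05 ± 0.36. The calls of CCND3, CDK6 (-0.81 ± 0.26), RB1 and RBL2 were lost in DESeq2, and those of CCND1 and CDK6 without either JQ1 library. With the 4 libraries of the experiment alone CCND1 turned to 0.15. The CDK inhibitor p21 (CDKN1A) read 28.4, 14.8, 55.3 and 48.3 CPM (1.70 ± 0.20, adjusted p = 0.000898), and it was the only 1 of 4 CDK inhibitors called.

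Phase scores of single cells, computed from the S-phase and G2/M lists with both libraries scored together after thinning, put 55.8% of JQ1+paclitaxel cells in G1 (51.7 to 59.8%, 338 of 606) and 12.2% of paclitaxel cells (9.88 to 14.7%, 89 of 732). S phase took 20.8% against 46.2%, and G2/M 23.4% against 41.7%. Intervals are exact binomial and cover counting error only. Scored within each library the G1 shares were 47.4% and 23.1%, and with all UMIs 54.0% and 8.47%. Cells within 0.05 of a boundary made up 17.2% of the JQ1+paclitaxel cells (104) and 34.0% of the paclitaxel cells (249). A score reads the same genes that fell in the sums, and a change in the share of cycling cells cannot be told apart there from a change of these RNAs within a phase.

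Inflammatory genes moved both ways. Of 17 genes tested from the cytokine, chemokine and adhesion list, 7 were called higher and 4 lower, with a median of 1.09. The neutrophil chemoattractant IL8 read 787 CPM in DMSO, 73.5 in paclitaxel, 224 in JQ1-A and 237 in JQ1+paclitaxel (1.69 ± 0.27, adjusted p = 0.00235). JQ1+paclitaxel was thus above paclitaxel and close to JQ1-A, and all 3 were below DMSO. IL6, the acute-phase cytokine, read 80.3, 13, 76.2 and 58.6 CPM (2.17 ± 0.27). LIF rose by 3.34 ± 0.61 from 10 UMIs in the paclitaxel library, CXCL1 by 2.52 ± 0.46, CXCL3 by 2.3 ± 0.45, CCL20 by 1.72 ± 0.26 and IL18 by 1.53 ± 0.19. CXCL3 was spread very unevenly over the JQ1+paclitaxel cells. Its squared coefficient of variation, less that of Poisson counts, was 81.4 there, beside 9.24 in paclitaxel and 4.63 in JQ1-A. A few cells may therefore weigh heavily on its sum. With the 4 libraries of the experiment alone, where 1 JQ1 effect is fitted for both backgrounds, the call of CCL20 was lost and the sign of IL8 turned (-0.04).

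The 4 members called lower were IL32 (above), the interleukin 7 receptor IL7R at 12.6, 14.9, 1.40 and 1.01 CPM (-3.88 ± 0.48), the adhesion molecule ICAM1 at 8.28, 4.09, 0.668 and 0.928 CPM (-2.13 ± 0.46) and CSF2 at 13.7, 6.06, 3.67 and 2.09 CPM (-1.53 ± 0.40). In these 4 genes both libraries with JQ1 lay below both without it. CSF2 was not called in DESeq2. The paclitaxel library, 1 side of the comparison, was the lowest of the 8 for 12 of the 17 genes (70.6%, beside 22.7% of all genes tested). This count describes the same values. CXCL2, at 64.9 CPM in paclitaxel and 156 in JQ1+paclitaxel, did not pass (1.27 ± 0.48, adjusted p = 0.0631).

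Of 14 genes of NF-kB subunits and inhibitors, 3 were called higher and 2 lower, and with library total scaling 2 and 3. The 35.7% called was near the 36.0% of all genes tested, so the list as a whole did not stand apart. NFKBIZ, an inducible cofactor of NF-kB, read 32.8 CPM in DMSO, 6.41 in paclitaxel, 25.4 in JQ1-A and 22.6 in JQ1+paclitaxel (1.82 ± 0.35), and the deubiquitinase TNFAIP3 rose by 1.44 ± 0.44. RELA (-0.35 ± 0.17), NFKB1 (-0.13 ± 0.19) and NFKBIA (0.25 ± 0.26) did not pass. Among 24 interferon-stimulated genes tested, 6 were called lower and 4 higher (median -0.31), and with library total scaling 11 and 2. The ubiquitin-like modifier ISG15 read 101, 85.3, 35.9 and 35.4 CPM (-1.27 ± 0.27), OASL fell by 2.11 ± 0.46, OAS3 by 2.19 ± 0.42 and IFI44 by 1.26 ± 0.23. BST2, which tethers budding virus, read 116, 72.1, 97.7 and 120 CPM (0.74 ± 0.18), a call lost with library total scaling, and the transcription factor IRF7 rose by 1.57 ± 0.33.

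Beside 18.9% of all genes tested, 3 of 14 genes that make and load MHC class I peptides (21.4%) were called lower, and 0 higher. These were the immunoproteasome subunit PSMB8 at 91.4, 79.1, 40.2 and 41.5 CPM (-0.93 ± 0.17), the proteasome activator PSME2 (-0.84 ± 0.15) and the peptide transporter TAP1 (-0.87 ± 0.20). The class I heavy chain HLA-B (-0.29 ± 0.23) and the light chain B2M (0.30 ± 0.14) did not pass. Among 6 acute-phase and complement genes, SAA1 (1.92 ± 0.46) and C3 (2.09 ± 0.54) were called higher, and C1R (-2.09 ± 0.57) and CD55 (-1.53 ± 0.23) lower. SAA1 is nearly identical to SAA2, so its count is uncertain, and its sign turned with the 4 libraries of the experiment alone (-0.18).

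**Figure D3:**
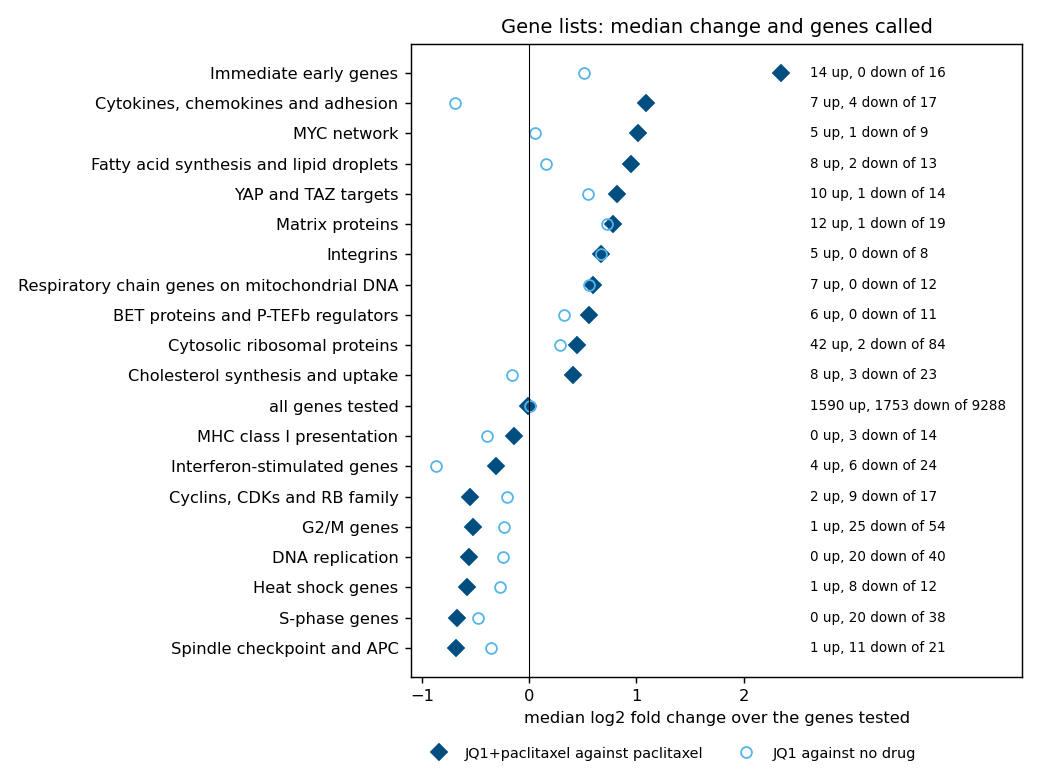
Median log2 fold change over the tested genes of 19 lists and of all genes tested, for JQ1+paclitaxel against paclitaxel (filled diamonds) and for JQ1 against no drug (open circles), with the genes called higher and lower by the first comparison at the right. Immediate early genes lie at 2.35 and the spindle checkpoint list at -0.68, with all genes tested at -0.01. In the cytokine list the medians of the 2 comparisons lie on opposite sides of 0.

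Genes of the JQ1 targets and their partners rose in part. Of 11 genes for BET proteins and P-TEFb regulators, 6 were called higher and 0 lower (median 0.56). BRD2 read 72.5 CPM in DMSO, 74.5 in paclitaxel, 99.2 in JQ1-A and 110 in JQ1+paclitaxel (0.56 ± 0.16), and BRD3 rose by 0.87 ± 0.19. The call of BRD2 was lost without either JQ1 library and with library total scaling, which called 4 members higher and 2 lower. HEXIM1, which holds P-TEFb inactive and is used as a marker of BET inhibitor exposure, read 14.6, 16.1, 32.5 and 35.2 CPM (1.13 ± 0.18). AFF4, a scaffold of the elongation complex, rose by 0.85 ± 0.18, and the kinase CDK9 did not pass (0.01 ± 0.21).

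Of 10 tubulin genes, 2 were called higher and 2 lower, and with library total scaling 2 and 5. TUBB, the main beta tubulin, read 1222, 942, 801 and 751 CPM and did not pass (-0.33 ± 0.19). TUBA1A read 192, 46.1, 186 and 196 CPM (2.09 ± 0.48) but is nearly identical to TUBA1B and TUBA1C, and its call was lost in DESeq2. TUBA4A fell by 1.11 ± 0.17. Among 14 microtubule-binding genes 2 were called higher and 0 lower, the neuronal MAP2 at 7.60, 1.77, 12 and 12.7 CPM (2.84 ± 0.37) and the plus-end protein CLASP1 (1.15 ± 0.22). With library total scaling 2 of these genes were also called lower. Of 6 drug efflux pumps tested, the transporter ABCC3 alone was called, at 43.0, 16.1, 95.5 and 86.2 CPM (2.42 ± 0.25), and with library total scaling 1 pump was also called lower. None of the 3 listed genes of paclitaxel metabolism was tested. ABCB1, the best known paclitaxel pump, was not among the genes tested.

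In the MYC network, 5 of 9 genes were called higher and 1 lower (median 1.02). MYC itself read 323 CPM in DMSO, 258 in paclitaxel, 564 in JQ1-A and 670 in JQ1+paclitaxel (1.38 ± 0.24, adjusted p = 0.00302). MXD4 and MNT, repressors that compete with MYC for MAX, rose by 1.79 ± 0.17 and 1.02 ± 0.20, and MAX fell by 0.62 ± 0.22, a call lost in DESeq2. Of 11 BCL2 family genes tested, 3 were called higher and 1 lower, and with library total scaling 3 and 2. The 36.4% called was near the 36.0% of all genes tested. The antiapoptotic MCL1 rose by 0.89 ± 0.19, the proapoptotic BBC3 (PUMA) by 1.82 ± 0.25 and BMF by 2.80 ± 0.54, while the proapoptotic BAK1 fell by 1.06 ± 0.22 on the log2 scale. BCL2L1 read 48.2 CPM in paclitaxel and 60.9 in JQ1+paclitaxel and did not pass (0.34 ± 0.18).

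Most genes of fatty acid synthesis and lipid handling rose. Of 13 tested, 8 were called higher and 2 lower (median 0.95), and of 23 genes of cholesterol synthesis and uptake 8 were called higher and 3 lower (median 0.41). With library total scaling these were 7 and 3 for the first list and 5 and 4 for the second. SCD, the stearoyl-CoA desaturase, read 158 CPM in DMSO, 40.4 in paclitaxel, 186 in JQ1-A and 170 in JQ1+paclitaxel (2.07 ± 0.26). The sterol-responsive factors SREBF1 (1.82 ± 0.32) and SREBF2 (1.92 ± 0.24) rose, and INSIG1, which holds them in the endoplasmic reticulum, read 120, 23.9, 106 and 97.6 CPM (2.03 ± 0.21). FASN rose by 0.95 ± 0.20, a call lost with the 4 libraries of the experiment alone. The sterol enzymes did not move together. EBP fell by 1.22 ± 0.17 and NSDHL by 1.10 ± 0.23, LSS rose by 0.97 ± 0.22, and HMGCS1 (0.09 ± 0.23) and SQLE (-0.17 ± 0.22) did not pass. FABP5 read 436, 798, 289 and 396 CPM and fell by 1.01 ± 0.21 on the log2 scale, opposite to FABP4.

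The FABP4 RNA was held by a minority of cells. After thinning, 157 of 606 JQ1+paclitaxel cells (25.9%, interval 22.5 to 29.6%) had a UMI of it, against 10 of 732 paclitaxel cells (1.37%, 0.657 to 2.50%). The shares were 1.57% in DMSO and 5.08% in JQ1-A. With all UMIs they were 36.8% in JQ1+paclitaxel and 2.60% in paclitaxel. In JQ1+paclitaxel 61 cells had at least 5 UMIs of FABP4, 21 had at least 20 and the highest had 117. The 60 cells with most of it held 88.7% of its UMIs. Cells with FABP4 also more often had a UMI of ADIRF (31.2%, interval 24.1 to 39.1%, against 6.01%, 4.0 to 8.63%, of cells without FABP4), APOC1 (36.3%, 28.8 to 44.3%, against 11.4%, 8.58 to 14.7%), APOE (23.6%, 17.2 to 31.0%, against 8.46%, 6.06 to 11.4%) and SAA1 (26.8%, 20.01 to 34.4%, against 7.57%, 5.30 to 10.4%). For SCD the shares were 68.2% and 70.2%, and for NR4A1 29.3% and 28.1%, with overlapping intervals. Single UMIs of FABP4 in cells with few of them can also come from free RNA of the cells rich in it, a share that was not measured. The cells of 1 library share its handling, so these shares describe the library and are not a test over cultures. Of the adipocyte markers in the table PLIN1 had 0 UMIs in both libraries, and CIDEC had 7 UMIs in paclitaxel and 55 in JQ1+paclitaxel, where it was found in 10.2% of FABP4 cells and 0.891% of the others.

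Many matrix and adhesion genes rose. Of 19 matrix protein genes 12 were called higher and 1 lower (median 0.78), and library total scaling called 7 higher and 2 lower. Fibronectin (FN1) read 63.1 CPM in DMSO, 54.4 in paclitaxel, 267 in JQ1-A and 220 in JQ1+paclitaxel (2.02 ± 0.32). TGFBI, a TGF-beta-induced matrix protein, read 175, 231, 461 and 560 CPM (1.28 ± 0.19), LAMA5 rose by 1.32 ± 0.22 and SPARC by 0.79 ± 0.16. The laminin LAMB3 fell by 1.59 ± 0.23 on the log2 scale. COL1A1 read 68.8, 34.7, 57.5 and 59.9 CPM (0.78 ± 0.21), a call lost with library total scaling. Of 8 integrin genes 5 were called higher and 0 lower, with ITGA3 at 1.10 ± 0.17. Of 13 matrix proteases and inhibitors 4 were called higher and 3 lower, and with library total scaling 2 and 5. TIMP2 rose by 1.22 ± 0.19, while TIMP1 (-0.95 ± 0.38) and TIMP3 (-0.45 ± 0.30) did not pass.

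Of 14 YAP and TAZ genes, which respond to cell tension and density, 10 were called higher and 1 lower, and 5 and 1 with library total scaling. CTGF read 92.2 CPM in DMSO, 41.3 in paclitaxel, 174 in JQ1-A and 152 in JQ1+paclitaxel (1.88 ± 0.23), CYR61 read 327, 95.1, 298 and 319 CPM (1.75 ± 0.26) and AMOTL2 rose by 1.8 ± 0.19. YAP1 itself did not pass (0.12 ± 0.18), and TEAD4 fell by 0.92 ± 0.22. Of 15 genes of EGFR ligands and MAPK feedback 8 were called higher and 1 lower, and with library total scaling 5 and 4. The MAPK phosphatases DUSP1, DUSP5 and DUSP6 rose by 1.78 ± 0.26, 1.72 ± 0.23 and 1.23 ± 0.25, and ETV4 fell by 1.43 ± 0.21. In the list of epithelial and mesenchymal identity 6 of 13 were called higher and 0 lower, and with library total scaling 3 and 2, with the receptor AXL at 104, 82.0, 154 and 158 CPM (0.95 ± 0.15). VIM rose by 0.60 ± 0.13, a call lost with library total scaling. KRT18 (-0.47 ± 0.19) and CD44 (0.33 ± 0.19) did not pass.

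Most heat shock genes tested fell. Of 12 members 8 were called lower and 1 higher (median -0.58). HSPH1 read 60.0 CPM in DMSO, 94.3 in paclitaxel, 35.2 in JQ1-A and 32.6 in JQ1+paclitaxel (-1.53 ± 0.18), HSP90AA1 read 1289, 1558, 780 and 812 CPM (-0.94 ± 0.20), and the exception, HSPB1, read 470, 218, 393 and 495 CPM (1.18 ± 0.19). Of 19 genes of the unfolded protein response 1 was called higher and 4 lower, all 4 among its 13 chaperones. Of 15 ATF4 targets 3 were called higher and 4 lower, of 18 NRF2 targets 6 and 3, and of 23 hypoxia and glycolysis genes 4 and 4. The shares called were 26.3% for the unfolded protein response and 34.8% for hypoxia and glycolysis, beside 36.0% of all genes tested. With library total scaling the counts called higher and lower were 0 and 7 for the unfolded protein response, 1 and 6 for ATF4 targets, 2 and 3 for NRF2 targets and 2 and 9 for hypoxia and glycolysis. Histone genes split. H2AFJ, a variant of H2A, read 178, 98.0, 178 and 229 CPM (1.23 ± 0.15) and HIST1H1C rose by 1.42 ± 0.30, while H2AFZ fell by 0.62 ± 0.17 on the log2 scale, and 8 of 15 were called higher and 2 lower, and with library total scaling 4 and 4. Of 9 HMG chromatin proteins 3 were called lower and 0 higher, with HMGB3 at -1.04 ± 0.16 and HMGA2 at -1.58 ± 0.39.

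Of 12 respiratory chain genes on mitochondrial DNA 7 were called higher and 0 lower (median 0.59), as MT-CO1 at 6639 CPM in DMSO, 5614 in paclitaxel, 10603 in JQ1-A and 9732 in JQ1+paclitaxel (0.79 ± 0.16). The nuclear respiratory chain genes were chosen by the start of their symbols and include assembly factors. Of 79, 16 were called higher and 10 lower (32.9% called, beside 36.0% of all genes tested), and with library total scaling 4 and 19. Of 84 cytosolic ribosomal protein genes 42 were called higher and 2 lower (median 0.45), and with library total scaling 20 and 3. Their many pseudogenes make single counts uncertain. Among smaller lists, IGF axis genes had 3 of 8 called higher and 0 lower (37.5% called, beside 36.0% of all genes tested). S100 genes had 2 of 7 higher and 4 lower, and cancer-testis antigens 3 of 10 higher and 5 lower. With library total scaling the counts higher and lower were 2 and 1 for IGF axis genes, 1 and 4 for S100 genes and 3 and 6 for the antigens. Among the antigens MAGEA3 (-1.49 ± 0.20), MAGEA6 (-1.55 ± 0.17) and MAGEA12 (-1.18 ± 0.21) fell, but these genes are near-identical and may share reads, and MAGEC1 rose by 1.79 ± 0.26. The NR2F receptor list had NR2F1 called higher and NR2F6 lower (-0.62 ± 0.16) of 3, and with library total scaling 1 higher and 2 lower.

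The calls of 145 genes named here were followed through the alternatives. DESeq2 did not call 23 of them, AC003092.1, ANAPC11, ATF3, BRD3, C1R, CCND3, CDK6, CSF2, EGR2, ERBB2, HIST1H1C, IER2, KLF10, KRT75, MAX, MMP1, NR2F6, RB1, RBL2, SAA1, TEAD4, TNFAIP3 and TUBA1A. With the 4 libraries of the experiment alone the calls of ANAPC11, APOC1, BBC3, BRD3, BST2, CCL20, CCND3, CDK6, COL1A1, EGR2, FASN, FOS, HSPB1, MAX, MMP1, NFKBIZ, NR2F6 and TNFAIP3 were lost, and ATF3, IL8, SAA1 and CCND1 turned sign. Without JQ1-A, and likewise without JQ1-B, AC003092.1, ANAPC11, BRD2, C3, CCND1, CDK6, EGR2, MAX and RBL2 were not called. Library total scaling did not call ANAPC11, ATF3, BRD2, BST2, COL1A1, KLF10, RBL2 and VIM. In libraries thinned to equal UMIs ANAPC11, C1R, CDK6 and MAX were not called.

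The response to JQ1 with paclitaxel was set against the response to JQ1 without it, which was fitted as both JQ1 libraries against pre-treatment and DMSO. These comparisons share no library. Of the 3343 called genes, 2197 (65.7%) were also called for JQ1 without paclitaxel, beside 3750 of all 9288 genes tested. These 2197 were 58.6% of the 3750, beside the 36.0% of all genes tested that were called for JQ1 with paclitaxel. Of the 2197 genes, 2178 had the same direction in both comparisons. Across 4433 genes whose mean level reached 20 CPM, the log2 fold changes had a Pearson r of 0.757 and a Spearman rho of 0.762, a description across genes, which are not independent. The median absolute log2 fold change of the 3343 genes, which were chosen on the first of the 2 effects, was 0.92 with paclitaxel and 0.56 without. In 1403 of the 1427 called genes at least 2-fold apart, the JQ1+paclitaxel level was within 2-fold of JQ1-A. The same share over all genes tested was not counted, and these libraries lay close for genes in general. Over genes whose mean level reached 20 CPM, their median absolute log2 ratio, centred on the median gene, was 0.118. It was 0.408 between JQ1+paclitaxel and paclitaxel. The count is therefore not particular to the called genes.

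The difference between the effects of JQ1 was itself called for 36 genes (0.388% of those tested), 33 with a higher effect in the presence of paclitaxel and 3 with a lower one. The unadjusted p was under 0.05 for 1577 genes. IL8 differed by 3.81 ± 0.34 (adjusted p = 0.00597), since JQ1 with paclitaxel went with a rise and JQ1 without paclitaxel with a fall of 2.12 on the log2 scale. APOC1, an apolipoprotein, read 24.4 CPM in DMSO, 16.4 in paclitaxel, 11.2 in JQ1-A and 43.2 in JQ1+paclitaxel, and its effects differed by 2.75 ± 0.26. SAA1, an acute-phase protein, read 24.0, 17.5, 3.14 and 66.3 CPM and differed by 5.49 ± 0.62. FABP4 differed by 4.40 ± 0.46. SMIM14 read 34.2, 7.62, 33.1 and 35.3 CPM and differed by 2.31 ± 0.25. In SMIM14 the difference between the effects came with a low paclitaxel library, and in SAA1 and APOC1 with a JQ1+paclitaxel library above the other 3 of the experiment. Of the 2 acute-phase genes tested, SAA1 among them, 0 were highest in JQ1+paclitaxel over all 8 libraries. Their summed levels were 68.9 CPM in pre-treatment, 71.8 in JQ1+paclitaxel and 306 in palbociclib.

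The 3 genes with a lower effect were SLC7A5, the large neutral amino acid transporter, at 24.8 CPM in DMSO, 53.4 in paclitaxel, 25.9 in JQ1-A and 14.7 in JQ1+paclitaxel (-1.96 ± 0.29), CCND1 (-1.28 ± 0.20) and the interleukin 1 receptor kinase IRAK1 at 134, 203, 81.6 and 55.3 CPM (-1.16 ± 0.20). Members of the lists above among the 36 genes were IL6, CXCL1, CCL20, NFKBIZ, EGR1, JUNB, JUND, NR4A1, INSIG1, SREBF2, H2AFJ, BBC3 and ATF3, all with a higher effect in the presence of paclitaxel. The number of genes depended on the libraries that set the spread. It was 10 without JQ1-A, 1 without JQ1-B, 617 without DMSO and 1141 without the pre-treatment library. IL8 was called in 12 of 12 alternatives.

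**Figure D4:**
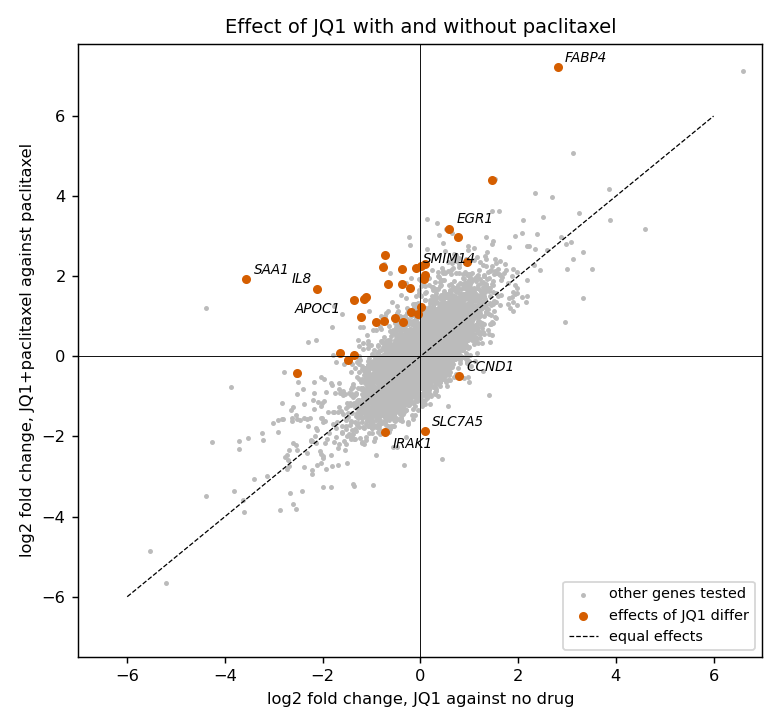
Each point is 1 of 9288 genes, with the log2 fold change of JQ1 against no drug on the x axis and that of JQ1+paclitaxel against paclitaxel on the y axis; orange points are the 36 genes whose effects differed and the dashed line marks equal effects. IL8 and SAA1 lie left of 0 and above it, FABP4 lies at the top, and SLC7A5, CCND1 and IRAK1 lie below the line.

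Within single cells the JQ1 response was read as the share of UMIs from 45 genes at least 2-fold higher, and from 391 genes at least 2-fold lower, in JQ1-A than in DMSO (at least 20 CPM in the higher library). These genes were chosen on plain CPM with 1 added, not scaled by TMM (factors 0.926 in JQ1-A and 1.10 in DMSO). TMM raises JQ1-A relative to DMSO, so the uneven sizes of the 2 sets depend in part on the scaling. Neither library that chose these genes was among the 2 in which they were read. The higher genes took a median of 1.70% of the UMIs in paclitaxel cells and 3.92% in JQ1+paclitaxel cells (interquartile range 2.97 to 5.6%), beside 2.19% in DMSO and 5.09% in JQ1-A. The lower genes took 3.41% in paclitaxel cells and 1.47% in JQ1+paclitaxel cells, beside 3.28% in DMSO and 1.32% in JQ1-A. The distributions overlapped. Of 606 JQ1+paclitaxel cells, 298 (49.2%, 45.1 to 53.2%) were above the 95th percentile of paclitaxel cells for the higher genes, and 545 (89.9%, 87.3 to 92.2%) were below the 5th percentile for the lower genes. Beyond every paclitaxel cell were 25 and 149 cells.

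**Figure D5:**
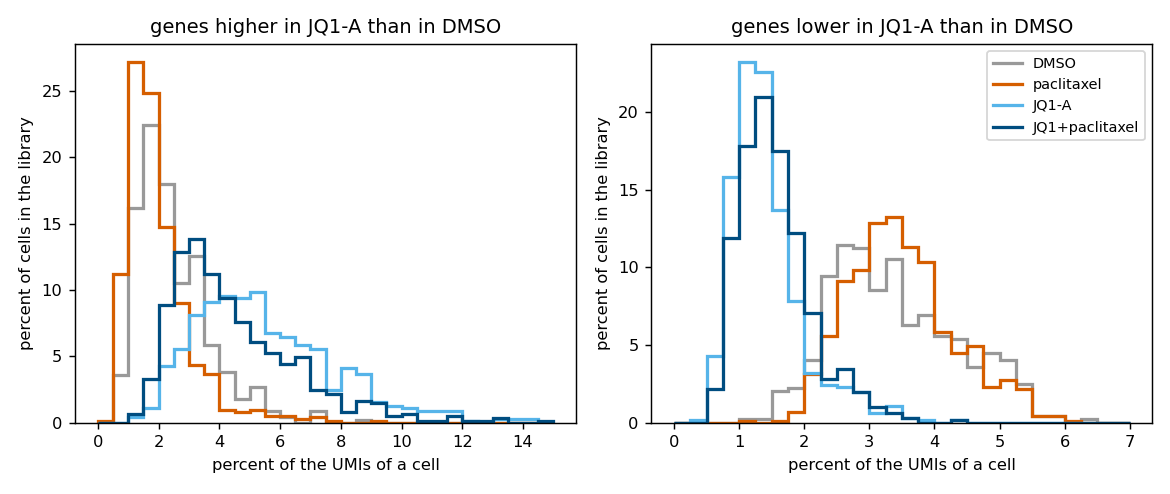
Percent of cells in each library (y axis) by the percent of a cell's 10000 thinned UMIs (x axis) from genes higher (left) or lower (right) in JQ1-A than in DMSO; lines are DMSO (grey), paclitaxel (orange), JQ1-A (light blue) and JQ1+paclitaxel (dark blue). On the left the JQ1+paclitaxel cells, with a median of 3.92%, overlap the paclitaxel cells, whereas on the right, with a median of 1.47% against 3.41%, they overlap less.

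Cells of the JQ1+paclitaxel library also varied more among themselves. Variation beyond counting noise (the squared coefficient of variation less that of Poisson counts) was computed for 1671 genes that averaged 0.5 UMI or more per thinned cell in each of DMSO, JQ1-A, paclitaxel and JQ1+paclitaxel. Its median was 0.146 in JQ1+paclitaxel and 0.0926 in paclitaxel, beside 0.155 in JQ1-A and 0.0954 in DMSO. It was higher in JQ1+paclitaxel than in paclitaxel for 1215 genes (72.7%). Each value comes from 1 library, so the differences have no replicate check.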

How the data were processed

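Single-cell libraries of SUM159 cells were made with a 3' droplet kit. Per the submitters' processing notes, the authors aligned reads to hg19 with Cell Ranger and used Seurat. The deposited table holds UMI counts of 18955 genes in 5738 cells, not normalised. Groups came from the treatment labels of the samples, and doses are those the study states for these cultures. Members, gene lists and the rule for named genes were chosen with earlier results of these data known.

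Counts were summed over all cells of a library. edgeR 4.0.16 (R 4.3.3, limma 3.58.1) fitted 6 exposures to 8 libraries after TMM, for genes with at least 5 CPM in at least 2 libraries. Standard errors were derived from the fold change and its F statistic. DESeq2 1.42.0 was an alternative. On simulated counts of 9288 genes with 200 changed 4-fold, 99.5% were recovered for the comparison of JQ1+paclitaxel with paclitaxel and 96% for the difference between JQ1 effects. Of the unchanged genes, 7 and 10 were called. All simulated libraries were given the spread of the same fit. The simulation therefore checks the code and cannot show whether the single libraries vary by that spread. Counting intervals of folds and shares are exact binomial at 95%. They cover counting error only.

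For values per cell, cells that passed the study's own filter (mitochondrial share of 1 to 15%, 2000 genes or more) were thinned to 10000 UMIs, which left 606 JQ1+paclitaxel cells (14 too shallow) and 732 paclitaxel cells (8 too shallow). Phases were scored with Seurat 5.3.0. No doublet caller was run. Leaving out cells above the 95th percentile of UMIs was an alternative. Other steps used Python 3.11.15, numpy 2.4.6, scipy 1.17.1 and pandas 2.3.3.

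Named genes were the 12 largest called rises and falls that reached 20 CPM in either of the compared libraries, the 3 members with the largest ratio and all called members of each list, the 5 genes per direction with the lowest p for the difference between JQ1 effects, genes the study discusses, drug targets, and the 3 genes per direction with the largest change in variation. The last met the minimum of UMIs in 1 of the compared libraries only, so their variation is not given, except for CXCL3. From lists, a selection of these is printed. A few genes are not reported here. List members that missed the test and are printed beside them, and genes tallied in the co-occurrence with FABP4, were chosen after their values were seen. Gene coordinates are GRCh37, matched for 9035 of 9288 genes, and promoters are GRCh38.p14.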

Additional observations from a re-analysis of the deposited data

Results flagged for a closer look

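The effect of JQ1 differed between cells with and without paclitaxel, by the test of the difference itself (edgeR, adjusted p under 0.05), for 21 genes named in the text. As log2 differences, positive where the effect was higher with paclitaxel, they were in SAA1 5.49, FABP4 4.40, IL8 3.81, CXCL1 3.25, NR4A1 2.93, APOC1 2.75, EGR1 2.60, IL6 2.55, NFKBIZ 2.47, SMIM14 2.31, JUNB 2.21, ATF3 2.21, BBC3 2.19, INSIG1 1.94, CCL20 1.93, SREBF2 1.85, JUND 1.39 and H2AFJ 1.21, and in IRAK1 -1.16, CCND1 -1.28 and SLC7A5 -1.96. JQ1+paclitaxel and paclitaxel are 1 library each, and except for IL8 every one of these calls was lost without at least 1 of the JQ1 libraries.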

How the results depend on the processing

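No paired analysis was possible because the cultures of each condition were pooled into 1 library. The 4 libraries of the experiment were fitted together instead. DESeq2 called 1783 genes between JQ1+paclitaxel and paclitaxel, and leaving out single libraries gave 2315 to 4392. For the difference between the effects of JQ1, DESeq2 called 75 genes, no filter on low counts gave 724, leaving out cells of very high UMIs gave 80, and leaving out single libraries gave 1 to 1141. The cause was not tested. The 2-fold count on plain CPM was 847 with 5 CPM added, which shrinks ratios of low genes by construction, and 964 for genes with at least 20 CPM, where fewer genes are counted. G1 shares were 47.4% (JQ1+paclitaxel) and 23.1% (paclitaxel) scored within libraries, and 8.47% in paclitaxel cells with all UMIs. With genes 4-fold apart the response shares, over fewer genes by construction, were 0.02% for both sets in JQ1+paclitaxel cells, and 0% (higher) and 0.06% (lower) in paclitaxel cells. With these genes 230 of 606 JQ1+paclitaxel cells (38.0%) were above the 95th percentile of paclitaxel cells for the higher genes. For the lower genes 102 (16.8%) were below the 5th percentile. Beyond every paclitaxel cell were 73 and 0, and the lowest paclitaxel cell held 0% of the lower genes, so none could lie below it. A fit of the 4 libraries of the experiment with 1 additive JQ1 effect turned 4 called genes: ATF3 to -0.14, IL8 to -0.042, SAA1 to -0.18 and CCND1 to 0.15, since it averages the effects with and without paclitaxel. Of 145 called genes in the text, 141 kept their sign and 108 their call in those of 13 alternatives in which they were fitted, all 13 for 141 genes. Depth limits genes under about 0.209 CPM, where 3 UMIs are expected in the JQ1+paclitaxel library.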

Other observations

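Genes of the X chromosome fell more than others. Of 173 X-linked genes whose mean level reached 20 CPM, 99 (57.2%) were called, 11 higher and 88 lower, beside 42.4% of the 4433 such genes on all chromosomes. Their median log2 fold change was -0.55, beside -0.11 over all 4433 genes. In log2 ratios of normalised CPM with 1 added, the X median was -0.45 between JQ1-A and DMSO, -0.45 between JQ1-B and pre-treatment, -0.31 between JQ1+palbociclib and palbociclib, -0.11 between paclitaxel and DMSO and -0.08 between pre-treatment and DMSO. The chromosome was chosen after its values were seen, and no cause was tested.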
